A study of Rattus norvegicus with 15 samples.

Results

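Of the 15 RNA-sequencing libraries of the study, 6 are described here, across all genes. They are the 3 labelled shRac1+OGD and the 3 labelled shLuci+OGD, chosen by their titles. The shRac1+OGD libraries came from Sprague Dawley rat mesenchymal stem cells of femoral bone marrow, at passages 3 to 5, infected with a lentivirus carrying a hairpin against Rac1. Those cells were then deprived of oxygen and glucose (OGD) for 12 h, at 1% O2 in DMEM without sugar, and reoxygenated for 24 h. The shLuci+OGD libraries came from the same kind of cells after the same OGD and reoxygenation, infected with a lentivirus carrying a hairpin against luciferase. Of the other 9 libraries, 3 titled shRac1 and 3 titled shLuci hold, by their titles, infected cells without OGD, and 3 labelled BMSC hold cells with neither virus nor OGD. In the labels' account of treatments the name of the shRac1 group stands in 2 places, with lentivirus alone and again with OGD, so that all groups here, and each value given as without OGD, follow the titles. The comparison asks what the Rac1 hairpin changes in stem cells that have passed through OGD. The labels give neither the hairpin sequences nor the share of infected cells, and nothing in them ties a replicate to its own culture or animal. The p-values therefore measure only the spread between these samples, which may be technical.

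Rac1 is a small GTPase. With GTP bound it drives actin branching at the cell edge through the WAVE and Arp2/3 complexes, it activates the PAK kinases, and it assembles NADPH oxidases. In cells of mesenchymal origin Rac1 and its relatives Rhoa and Cdc42 also set the pool of free actin, which controls the transcription factor SRF and its contractile target genes, and they feed into the coactivators YAP and TAZ. OGD followed by reoxygenation is a culture model of ischaemia and reperfusion.

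Levels are FPKM, fragments normalised for transcript length and library size, as the authors deposited them. The table lists 12169 genes, of which 11515 were tested, those with 1 FPKM or more in 3 or more of the 15 libraries. Changes, folds included, are given on the scale of log2(FPKM + 0.5), which understates those of genes with low FPKM. Positive values mean higher in the libraries labelled shRac1+OGD. The sequencing depth is unknown, since FPKM hold no counts. The 6 OGD libraries summed to between 483822 and 516495 FPKM, with 43 to 78 genes listed at 0, and each correlated with the other 2 of its group at a mean r across genes of 0.991 or more. BMSC replicate 2, which enters the shared estimate of the spread but neither OGD group, stood apart at 628685 FPKM, 144 genes at 0 and a mean r with its own group of 0.915. Of 9 markers of bone marrow mesenchymal stem cells, 7 are listed. They summed to between 1392 and 1417 FPKM in the libraries labelled shRac1+OGD and to between 1301 and 1381 FPKM in those labelled shLuci+OGD, led by Thy1 and Itgb1, and none of them was called. The sum hides members that differed in direction. Without overlap, Thy1 and Itgb1 lay higher with shRac1+OGD (log2 changes 0.134 and 0.261). Alcam, Pdgfra and Prrx1 lay lower, also without overlap (-0.275, -0.663 and -0.471). Cd44 and Pdgfrb overlapped between the groups (0.090 and 0.101). Of the markers of other cells, 3 of 7 for macrophages are listed (Cd14, Cd68 and Fcer1g), 1 of 5 for endothelium (Tek, at most 0.556 FPKM), 0 of 4 for T and B cells and 0 of 5 for erythroid cells and neutrophils. From wider lists, Erg and Flt1 of endothelium and Ngp of neutrophils were tested, and none of these was called. Cd14, a co-receptor for lipopolysaccharide, stood at 8.93, 9.16 and 8.63 FPKM in the libraries labelled shRac1+OGD, against 12.9, 11.8 and 12.4 FPKM in those labelled shLuci+OGD. The groups did not overlap, and Cd14 fell by 0.45 on the log2 scale (SE 0.11, limma adjusted p = 0.0209), a call that ended with quantile or median-of-ratios scaling and without any 1 OGD library other than shLuci+OGD replicate 2. Cd68 ranged from 0.578 to 1.02 FPKM with shRac1+OGD and from 0.531 to 0.621 FPKM with shLuci+OGD (log2 change 0.24), and Fcer1g from 0.871 to 1.38 FPKM and from 0.385 to 1.76 FPKM in the same order (log2 change 0.36), and neither was called (limma adjusted p = 0.751 and 0.717). The 3 macrophage markers summed to between 10.5 and 11.3 FPKM with shRac1+OGD and to between 12.9 and 15.3 FPKM with shLuci+OGD, most of it Cd14, and Ptprc, Csf1r, Adgre1 and C1qa are not among the listed genes. Their part in the results was not tested. In bulk RNA, fewer cells of a type and less RNA per cell cannot be told apart.

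Rac1 itself (ENSRNOG00000001068) was not called lower in the libraries labelled with its hairpin, either after OGD or without. It stood at 152, 154 and 157 FPKM in the libraries labelled shRac1+OGD, against 139, 168 and 159.7 FPKM in those labelled shLuci+OGD. The shRac1+OGD values lay inside the range of the shLuci+OGD values, and the fold was 0.998 with a 95% confidence interval of 0.889 to 1.12 (limma adjusted p = 1). An exact permutation test over the 6 libraries, two-sided, gave p = 1, and 3 against 3 libraries cannot go below 0.1. Between the libraries labelled shRac1 and shLuci, without OGD, the fold of Rac1 was 0.942 with a 95% confidence interval of 0.839 to 1.06 (limma adjusted p = 0.577). FPKM over a whole gene does not show where on the transcript reads fell, and protein was not measured. Rac3, a close relative, averaged 1.53 ± 0.419 FPKM with shRac1+OGD and 1.92 ± 0.0818 FPKM with shLuci+OGD (SD, n = 3 each) and was not called, and Rac2 is not among the listed genes. Every direction below therefore rests on the sample titles. Correlations between the profiles are also given by title. Libraries labelled shLuci+OGD correlated across genes at a mean r of 0.978 with those labelled shRac1 and of 0.958 with those labelled shLuci, while libraries labelled shRac1+OGD gave 0.979 and 0.977 in the same order. Among the genes called after OGD, 81.3% had the opposite sign in the hairpin contrast without OGD, as did 59.7% of all genes tested. Genes are not independent replicates, and the cause of this pattern was not tested.

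Of the 11515 genes tested, 856 were called (7.43%, limma adjusted p below 0.05), 443 of them higher (3.85%) and 413 lower (3.59%) in the libraries labelled shRac1+OGD. The median size of the change of a called gene was 0.69 on the log2 scale. At least 2-fold changes were 116 rises and 80 falls. The 3 and 3 values did not overlap for any called gene, which was also so for 37.8% of all genes tested. The median change over all genes tested was -0.05. Without BMSC replicate 2, 1048 genes were called higher and 1425 lower, with all 856 among them. Without an OGD library fewer were called, 291 higher and 263 lower without shRac1+OGD replicate 1, 292 and 268 without shRac1+OGD replicate 2, 304 and 275 without shRac1+OGD replicate 3, and 312 and 265 without shLuci+OGD replicate 2. Rescaling to a common total gave 369 higher and 262 lower, and a mean of at least 5 FPKM 260 and 210. Counts of gene lists are of gene entries, so that a symbol with more than 1 gene identifier counts more than once. They are to be read beside the 3.85% higher and 3.59% lower of all genes tested. List counts under another setting are to be read beside the totals of that setting, such as 1048 and 1425 without BMSC replicate 2. A mean of at least 5 FPKM also takes members with low levels out of the test.

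**Figure D1:**
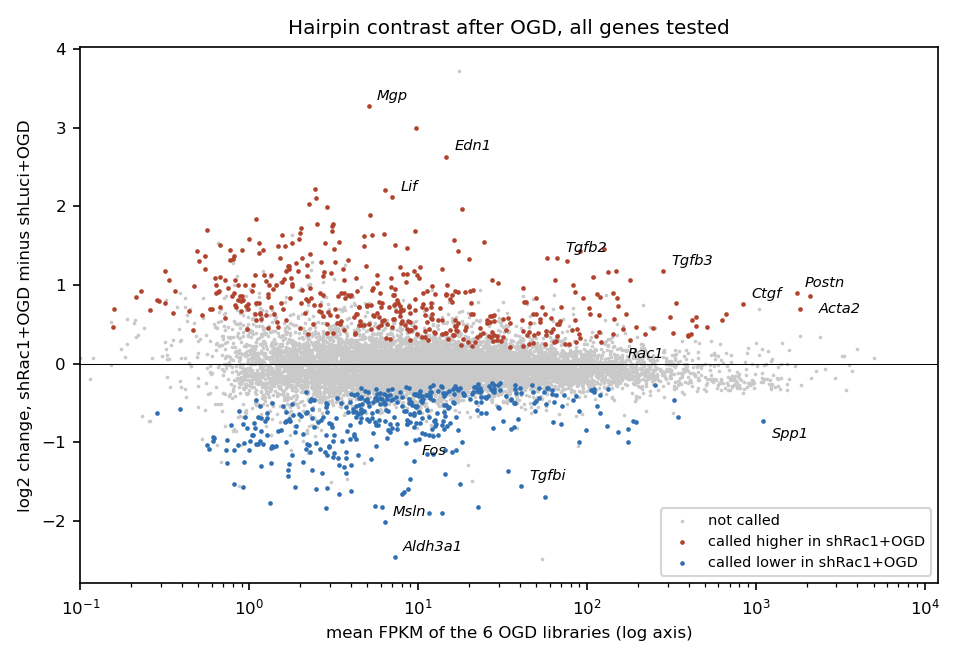
Log2 change between the libraries labelled shRac1+OGD and those labelled shLuci+OGD (vertical axis) against the mean FPKM of the 6 libraries (log axis) for each of the 11515 genes tested. Red points are the 443 genes called higher with shRac1+OGD, blue points the 413 called lower and grey points those not called; Rac1 sits on the zero line, with Mgp at the top and Aldh3a1 at the bottom of the called genes.

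Of 28 smooth muscle contractile genes tested, 15 were called higher and 1 lower in the libraries labelled shRac1+OGD, with a median log2 change of 0.31 against -0.05 over all genes. The list holds actins, myosin and tropomyosin subunits, calponins and coactivators of SRF. Myh11, the smooth muscle myosin heavy chain, stood at 11.3, 11.05 and 10.9 FPKM in the libraries labelled shRac1+OGD, against 3.70, 3.28 and 3.80 FPKM in those labelled shLuci+OGD. The groups were far apart, and it rose 2.84-fold (log2 change 1.50, SE 0.09, limma adjusted p = 4.87e-07). Actg2, the enteric smooth muscle actin, stood at 202, 206 and 209 FPKM in the libraries labelled shRac1+OGD, against 85.4, 94.8 and 91.6 FPKM in those labelled shLuci+OGD, with the log2 change at 1.18 and its SE at 0.14 (limma adjusted p = 0.000181). Cnn1, calponin, which binds actin and dampens myosin, stood at 410.2, 429 and 431 FPKM in the libraries labelled shRac1+OGD, against 262, 249 and 236 FPKM in those labelled shLuci+OGD (log2 change 0.77, limma adjusted p = 0.000131). Tpm1, a tropomyosin that lies along the actin filament, stood at 781, 802 and 825 FPKM in the libraries labelled shRac1+OGD, against 505, 535 and 522 FPKM in those labelled shLuci+OGD (log2 change 0.62, limma adjusted p = 9.26e-05). In all 4 genes the lowest shRac1+OGD library was above the highest shLuci+OGD library. The remaining genes of this list named here were chosen after their values were seen. Acta2, alpha smooth muscle actin, was one of the most abundant transcripts, at 2771, 2595 and 2736 FPKM in the libraries labelled shRac1+OGD, against 1349.6, 1642 and 1504 FPKM in those labelled shLuci+OGD (log2 change 0.85, SE 0.13, limma adjusted p = 0.00117). Tagln, transgelin, an actin-binding protein, rose by a log2 value of 0.69 (limma adjusted p = 0.00924). Des, the muscle intermediate filament desmin, was the member called lower, at 1.21, 1.29 and 1.12 FPKM in the libraries labelled shRac1+OGD, against 3.30, 3.08 and 2.99 FPKM in those labelled shLuci+OGD (log2 change -1.09, limma adjusted p = 0.000276). Srf at 0.23 and its coactivator Myocd at -0.18, both log2 changes and both picked after their values were seen, were not called (limma adjusted p = 0.0786 and 0.95). Since actin transcripts are alike in their coding parts, how reads were shared between Acta2, Actg2 and the other actins is uncertain. The count of 15 became 19 without BMSC replicate 2, 9 after rescaling to a common total, and 9 or 10 when an OGD library was left out (9 without replicate 3 of either group).

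The promoter of Acta2 is shown because CArG boxes, the sites of SRF, are known from promoters of contractile genes. The window holds the 250 bases before the RefSeq start in GRCr8 (chr1:241172504-241172753, minus strand), printed 5′ to 3′ with matches in capitals.
Acta2: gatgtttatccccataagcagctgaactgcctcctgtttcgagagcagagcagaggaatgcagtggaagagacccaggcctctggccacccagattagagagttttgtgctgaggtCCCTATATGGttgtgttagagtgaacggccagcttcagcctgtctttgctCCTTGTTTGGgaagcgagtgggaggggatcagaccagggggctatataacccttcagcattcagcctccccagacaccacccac
Capitals mark the 2 CArG boxes read in relaxed form, CC and GG around 6 bases of which at most 1 is not A or T, at positions -134 to -125 and -84 to -75 from the start. The relaxed box was found in 8.08% of 33469 rat promoter windows and the strict box in 1.5%. Of the contractile genes called higher, 11 have a window and 2 of these, Acta2 and Fhl1, hold a relaxed box, against 4 of 9 among those not called. GGAATG, the TEAD motif, searched on both strands, was in 4 of the 11 (Acta2, Mylk, Tpm1 and Cald1), in 4 of the 9 and in 12.1% of all windows. A match describes the sequence and is no evidence that a factor binds there. The motifs were chosen after the expression values were seen.

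Targets of YAP and TEAD rose in 8 of 20 cases with 0 falling (median log2 change 0.32; 10 rising without BMSC replicate 2). Ctgf, a secreted matricellular protein much used as a YAP readout, stood at 1051, 1041 and 1068 FPKM in the libraries labelled shRac1+OGD, against 555, 663 and 655 FPKM in those labelled shLuci+OGD (log2 change 0.76, SE 0.12, limma adjusted p = 0.00175). Cyr61, its relative, stood at 497, 489.9 and 506 FPKM in the libraries labelled shRac1+OGD, against 306, 359.8 and 350.0 FPKM in those labelled shLuci+OGD (log2 change 0.56, limma adjusted p = 0.00173). Both lay higher in each shRac1+OGD library than in any shLuci+OGD library. Nuak2, a kinase that acts on the myosin phosphatase, had a log2 change of 0.70 (limma adjusted p = 0.000545), and Ankrd1, a nuclear ankyrin repeat protein named after its value was seen, one of 1.12 (limma adjusted p = 0.00199). The list shares Tgfb2 with the next one.

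Of 30 genes of the TGF-beta and BMP pathway, 7 were called higher and 4 lower (median log2 change -0.06; 9 and 5 without BMSC replicate 2, and 2 lower at a mean of at least 5 FPKM). The ligands Tgfb2 and Tgfb3, which drive matrix synthesis and the contractile programme of mesenchymal cells, rose. Tgfb2 stood at 97.8, 95.6 and 94.8 FPKM in the libraries labelled shRac1+OGD, against 35.9, 37.3 and 39.8 FPKM in those labelled shLuci+OGD, a 2.53-fold rise (log2 change 1.34, SE 0.07, limma adjusted p = 1.47e-07). Tgfb3 stood at 387, 384 and 399 FPKM in the libraries labelled shRac1+OGD, against 167, 178 and 172 FPKM in those labelled shLuci+OGD (log2 change 1.18, SE 0.07, limma adjusted p = 5.34e-07). Tgfb1, the third ligand, picked after its value was seen, was not called, at a log2 change of -0.17 (limma adjusted p = 0.425). Among the antagonists, Fstl3, which binds activins, stood at 8.90, 7.81 and 8.32 FPKM in the libraries labelled shRac1+OGD, against 1.99, 2.91 and 2.18 FPKM in those labelled shLuci+OGD (log2 change 1.64, limma adjusted p = 0.000196). Bmp4 rose by a log2 value of 0.73 (limma adjusted p = 2.53e-05), whereas Bmp2, named after its value was seen, stood at 2.27, 1.34 and 1.79 FPKM in the libraries labelled shRac1+OGD, against 4.96, 4.97 and 5.19 FPKM in those labelled shLuci+OGD (log2 change -1.29, limma adjusted p = 8.8e-05). The BMP ligands thus moved in both directions. Tgfbr3, betaglycan, the co-receptor that presents Tgfb2, was also named after its value was seen, with a log2 change of -1.20 (limma adjusted p = 0.000707). Tgfbi, a secreted matrix protein first found as a TGF-beta target, went the other way from the 2 ligands. It stood at 20.5, 19.8 and 20.6 FPKM in the libraries labelled shRac1+OGD, against 58.3, 65.2 and 58.9 FPKM in those labelled shLuci+OGD, with the log2 change at -1.56 and its SE at 0.07 (limma adjusted p = 1.47e-07).

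**Figure D2:**
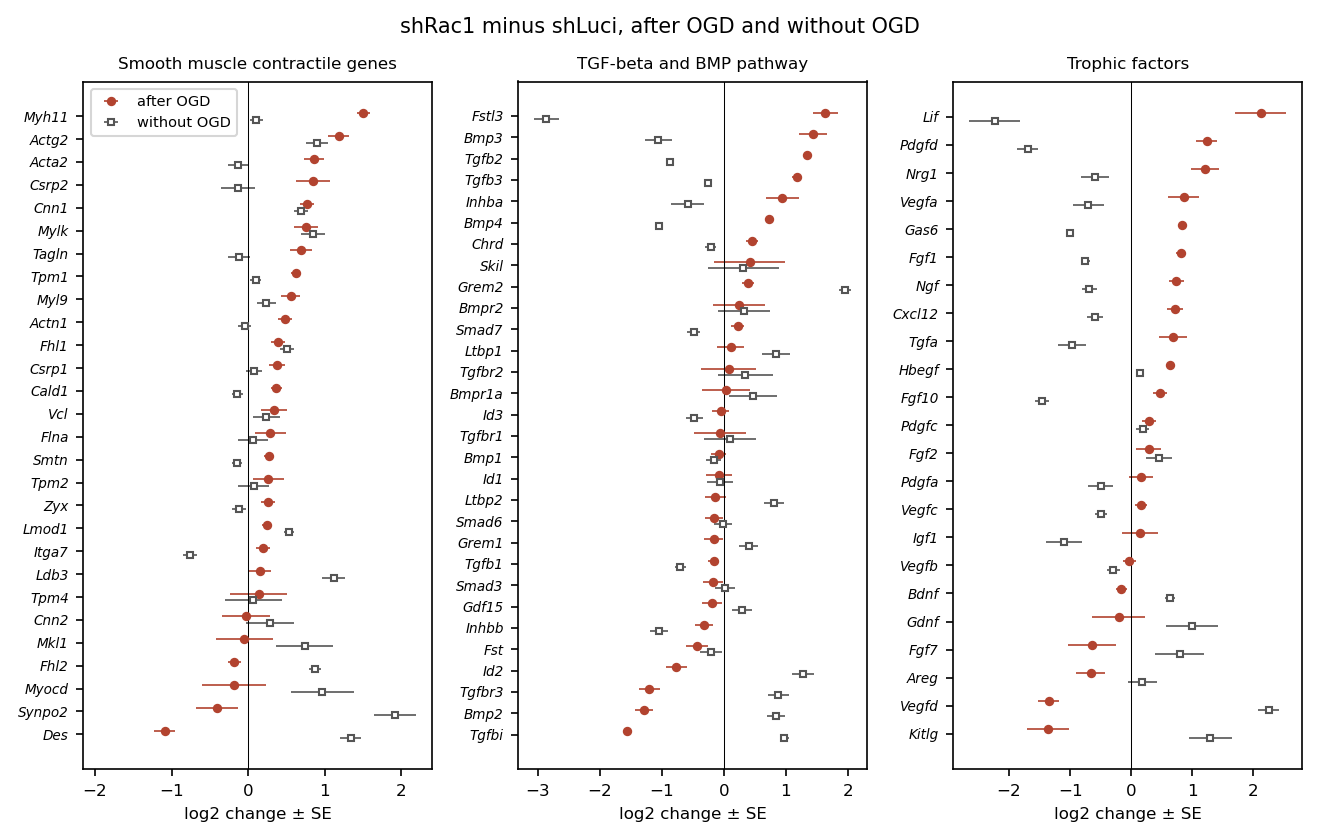
Log2 changes of shRac1 against shLuci (horizontal axis, ± the standard error of limma) for the tested members of 3 gene lists, with and without OGD. Filled red circles are shRac1+OGD minus shLuci+OGD and open squares shRac1 minus shLuci; Actg2 and Cnn1 lie right of zero in both, Lif, Pdgfd and Fstl3 lie right of zero after OGD and left of it without.

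Endothelin-1 showed the third largest rise among called genes. Edn1 (ENSRNOG00000014361) encodes a peptide that constricts vessels through the receptor Ednra and also acts on mesenchymal cells themselves. It stood at 26.5, 25.2 and 25.4 FPKM in the libraries labelled shRac1+OGD, against 3.40, 3.88 and 3.90 FPKM in those labelled shLuci+OGD. The values within each group were close together, and the rise was 6.20-fold (log2 change 2.63, SE 0.21, limma adjusted p = 7.24e-06). The level with shRac1+OGD was close to those of the infected groups without OGD, 26.0 ± 0.715 FPKM in shRac1 and 32.5 ± 1.34 FPKM in shLuci (SD, n = 3 each), and shLuci+OGD was the lowest of the 5 groups. Ednra, the receptor, stood at 0.802, 0.696 and 0.691 FPKM in the libraries labelled shRac1+OGD, against 1.82, 1.66 and 1.93 FPKM in those labelled shLuci+OGD and fell by 0.90 on the log2 scale (limma adjusted p = 0.00022). Prostaglandin genes were in the same list, of which 9 members were tested, 2 called higher and 2 lower (median log2 change -0.25; 1 lower at a mean of at least 5 FPKM). Ptger3, the EP3 receptor of prostaglandin E2, stood at 8.58, 8.37 and 8.29 FPKM in the libraries labelled shRac1+OGD, against 1.66, 2.11 and 1.97 FPKM in those labelled shLuci+OGD (log2 change 1.89, limma adjusted p = 3.36e-06). Ptgs1, cyclooxygenase-1, stood at 3.61, 3.63 and 3.54 FPKM in the libraries labelled shRac1+OGD, against 11.4, 12.7 and 13.1 FPKM in those labelled shLuci+OGD (log2 change -1.66, limma adjusted p = 2.16e-06). Ligand and EP3 receptor were thus higher, and Ednra and cyclooxygenase-1 lower.

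The Edn1 promoter is shown because AP-1 and GATA sites in it are known from human and mouse studies. The window is again the 250 bases before the RefSeq start in GRCr8 (chr17:22666688-22666937, minus strand), 5′ to 3′.
Edn1: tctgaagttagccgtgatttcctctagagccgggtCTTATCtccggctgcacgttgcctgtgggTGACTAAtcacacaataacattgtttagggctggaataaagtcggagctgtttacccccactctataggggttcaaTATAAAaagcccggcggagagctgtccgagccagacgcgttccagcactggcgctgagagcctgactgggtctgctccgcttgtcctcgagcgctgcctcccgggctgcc
Capitals mark TGACTAA, a variant AP-1 motif, at -186 to -180, the GATA motif GATAAG on the opposite strand at -215 to -210, and TATAAA at -110 to -105. Both strands were searched. TGACTAA was in 1.99%, GATAAG in 6.18% and TATAAA in 12.9% of the 33469 windows. Among the 15 genes with the largest rise, 9 have a window, and 1 of these, Edn1, holds TGACTAA. None of the 11 windows of the genes with the largest fall held it.

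Trophic factors rose in 9 of 23 cases and fell in 2 (median log2 change 0.29; 12 and 4 without BMSC replicate 2, and 1 lower after rescaling to a common total, at a mean of at least 5 FPKM or without any 1 OGD library). Lif, a cytokine of the interleukin-6 family, stood at 12.1, 12.1 and 11.002 FPKM in the libraries labelled shRac1+OGD, against 2.23, 2.34 and 2.37 FPKM in those labelled shLuci+OGD. It rose 4.35-fold with no overlap (log2 change 2.12, SE 0.42, limma adjusted p = 0.00675). Gas6, the ligand of the TAM receptors, stood at 65.4, 62.0 and 65.7 FPKM in the libraries labelled shRac1+OGD, against 33.4, 38.3 and 35.7 FPKM in those labelled shLuci+OGD (log2 change 0.84, limma adjusted p = 1.22e-05). Fgf1 stood at 20.3, 19.9 and 19.1 FPKM in the libraries labelled shRac1+OGD, against 11.1, 10.7 and 11.2 FPKM in those labelled shLuci+OGD (log2 change 0.81, limma adjusted p = 2.7e-05). Hbegf, an EGF receptor ligand, stood at 56.0, 60.3 and 57.8 FPKM in the libraries labelled shRac1+OGD, against 35.2, 38.8 and 37.5 FPKM in those labelled shLuci+OGD (log2 change 0.64, limma adjusted p = 4.8e-05). In these genes the lowest shRac1+OGD library exceeded the highest shLuci+OGD library by a wide margin. Nrg1, neuregulin, named after its value was seen, had a log2 change of 1.21 (limma adjusted p = 0.00463). Vegfd, a growth factor of lymphatic vessels, stood at 0.564, 0.977 and 0.700 FPKM in the libraries labelled shRac1+OGD, against 2.76, 2.90 and 2.32 FPKM in those labelled shLuci+OGD and fell by 1.35 on the log2 scale (limma adjusted p = 0.000346). Kitlg, the ligand of Kit, was named after its value was seen, at 18.3, 20.7 and 17.6 FPKM in the libraries labelled shRac1+OGD, against 54.6, 42.5 and 51.4 FPKM in those labelled shLuci+OGD (log2 change -1.36, limma adjusted p = 0.0312). Its call ended after rescaling to a common total and without any 1 of the 6 OGD libraries. Vegfa, also named after its value was seen, at 60.5, 48.4 and 52.7 FPKM in the libraries labelled shRac1+OGD, against 30.4, 30.2 and 27.3 FPKM in those labelled shLuci+OGD, did not overlap between the groups but missed the threshold (log2 change 0.86, limma adjusted p = 0.0602).

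Chemokines and NF-kB targets were called higher in 4 of 18 cases, with 0 lower (median log2 change 0.07; 7 higher without BMSC replicate 2). Tnfaip6, a hyaluronan-binding protein through which mesenchymal stem cells dampen inflammation, stood at 35.1, 39.3 and 37.6 FPKM in the libraries labelled shRac1+OGD, against 19.3, 16.5 and 17.0 FPKM in those labelled shLuci+OGD (log2 change 1.06, limma adjusted p = 1.63e-05). Cxcl1, which attracts neutrophils, stood at 18.6, 20.02 and 21.2 FPKM in the libraries labelled shRac1+OGD, against 9.003, 10.3 and 9.75 FPKM in those labelled shLuci+OGD (log2 change 1.00, limma adjusted p = 8.86e-05). Ccl2, which attracts monocytes, stood at 26.0, 24.8 and 23.6 FPKM in the libraries labelled shRac1+OGD, against 15.4, 12.9 and 10.9 FPKM in those labelled shLuci+OGD (log2 change 0.91, limma adjusted p = 0.0078). Interferon-stimulated genes went the other way, with 6 of 19 lower and 0 higher (median log2 change -0.43). Without BMSC replicate 2, 11 were lower, in a fit that called 1425 of all genes lower in place of 413. At a mean of at least 5 FPKM 1 was lower, and members below that level were not tested. With all libraries and genes, 6 were called. The 6 were Irf1 and Irf7, transcription factors of the interferon response, and Psmb8, Psmb9, Tap1 and Tap2, which cut and carry peptides for MHC class I. Irf1 stood at 6.38, 5.91 and 6.27 FPKM in the libraries labelled shRac1+OGD, against 10.9, 12.0 and 9.91 FPKM in those labelled shLuci+OGD (log2 change -0.77, limma adjusted p = 0.000355). Psmb9 stood at 1.27, 1.19 and 1.25 FPKM in the libraries labelled shRac1+OGD, against 3.39, 3.72 and 2.83 FPKM in those labelled shLuci+OGD (log2 change -1.13, limma adjusted p = 0.00176). Irf7 and Tap2 changed by -0.91 and -0.76 on the log2 scale (limma adjusted p = 0.000887 and 0.00398). The call of Psmb8, named after its value was seen, ended under quantile normalization and without shLuci+OGD replicate 1 or shRac1+OGD replicate 2. Of the macrophage markers, Cd14 was called lower in the same libraries and Cd68 and Fcer1g were not called, and their part in the interferon list was not tested.

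In the list of ERK feedback inhibitors, 4 of 13 genes were called higher and 2 lower (median log2 change 0.14). Without BMSC replicate 2, 4 were lower, and at a mean of at least 5 FPKM 1 was. The list is wider than its name, and not every member inhibits ERK. Spry4 stood at 16.4, 17.2 and 15.96 FPKM in the libraries labelled shRac1+OGD, against 8.70, 8.60 and 8.92 FPKM in those labelled shLuci+OGD (log2 change 0.88, limma adjusted p = 0.0011). Etv5, a transcription factor of the ETS family, and Phlda1 rose by log2 values of 0.63 and 0.62 (limma adjusted p = 0.000363 and 0.00148). Dusp5, a nuclear ERK phosphatase, had a log2 change of -0.50 (limma adjusted p = 0.00432), and neither fall of the list stayed called after rescaling to a common total. Dusp4, a phosphatase of ERK named after its value was seen, rose by a log2 value of 1.36 (limma adjusted p = 0.0192), a call that ended without any 1 OGD library other than shLuci+OGD replicate 3. The authors' deposited table gives Dusp4 0.952 on the scale of log2(FPKM + 1), so its size depends on the constant added. Of 8 Rgs genes tested, 1 was called higher and 1 lower. Rgs16, which speeds GTP hydrolysis on G-protein alpha subunits, stood at 35.7, 35.5 and 38.8 FPKM in the libraries labelled shRac1+OGD, against 12.4, 12.4 and 11.8 FPKM in those labelled shLuci+OGD (log2 change 1.55, limma adjusted p = 1.47e-07). Rgs17 had a log2 change of -0.95 (limma adjusted p = 0.0114), a call that ended without replicate 1 of either group.

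**Figure D3:**
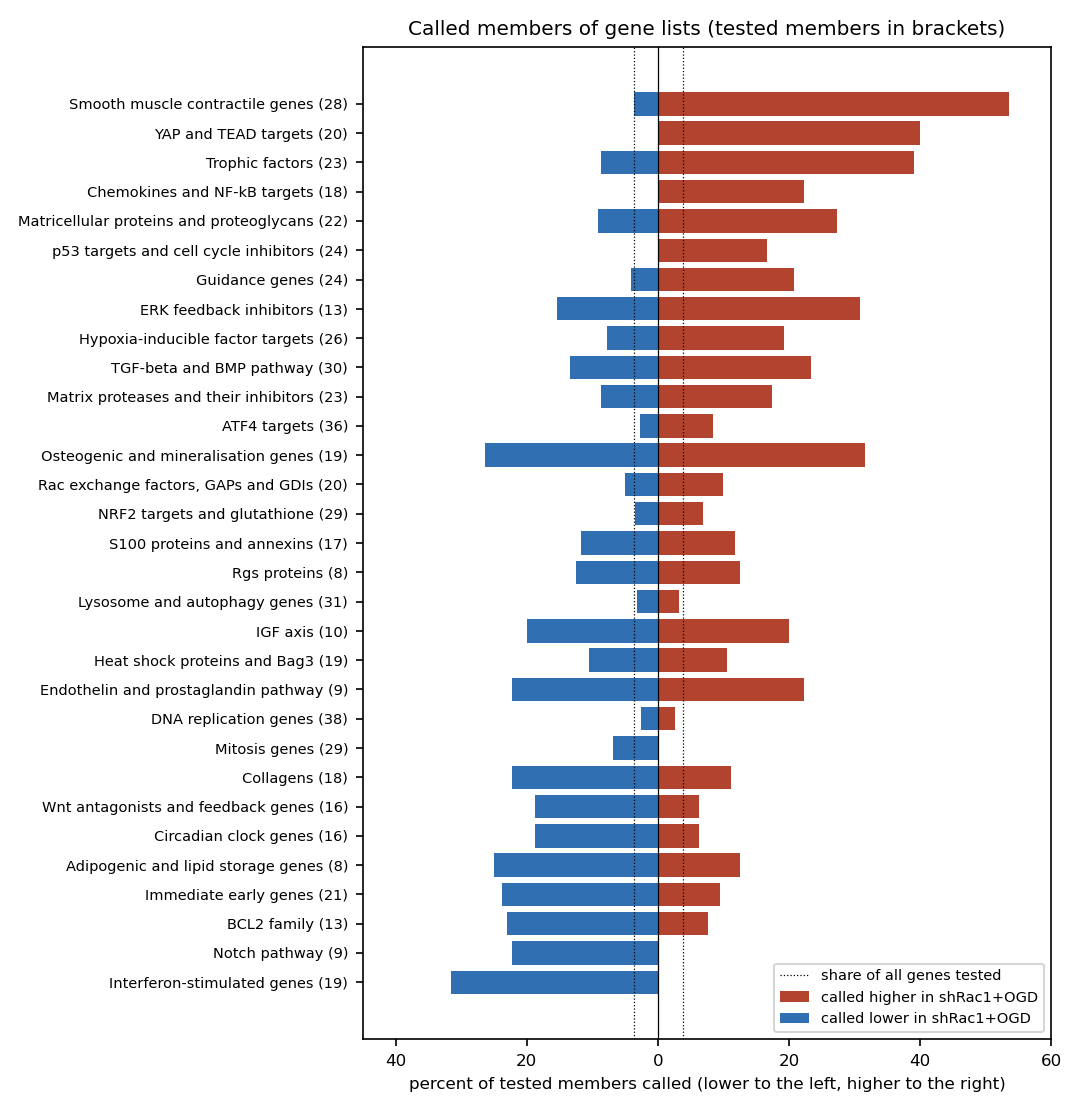
Percent of the tested members called higher (red, to the right) and called lower (blue, to the left) in the libraries labelled shRac1+OGD against those labelled shLuci+OGD, for the gene lists with at least 8 tested members and 2 called ones. Dotted lines mark the 3.85% and 3.59% of all genes tested; smooth muscle contractile genes top the order with 15 of 28 higher, and interferon-stimulated genes close it with 6 of 19 lower.

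Genes of bone and mineral were called in both directions, 6 higher and 5 lower of 19 tested (median log2 change 0.06; 1 lower at a mean of at least 5 FPKM). Mgp, matrix Gla protein, which keeps soft tissue from calcifying, showed the largest rise of all called genes. It stood at 9.74, 10.1 and 9.10 FPKM in the libraries labelled shRac1+OGD, against 0.634, 0.434 and 0.579 FPKM in those labelled shLuci+OGD. On the scale of FPKM + 0.5 the rise was 9.69-fold (log2 change 3.28, SE 0.22, limma adjusted p = 2.16e-06), less than the ratio of the FPKM themselves. The shLuci+OGD values were close to those of the shRac1 group without OGD, 0.616, 0.488 and 0.124 FPKM. The shLuci group without OGD had 185, 160.0 and 169.9 FPKM. Alpl, tissue-nonspecific alkaline phosphatase, stood at 8.13, 7.17 and 8.07 FPKM in the libraries labelled shRac1+OGD, against 4.27, 4.77 and 4.02 FPKM in those labelled shLuci+OGD (log2 change 0.77, limma adjusted p = 0.000305). Spp1, osteopontin, stood at 824, 820.3 and 839 FPKM in the libraries labelled shRac1+OGD, against 1489, 1347 and 1307 FPKM in those labelled shLuci+OGD (log2 change -0.74, limma adjusted p = 0.00066). Omd, osteomodulin, had a log2 change of -0.97 (limma adjusted p = 0.000407), and Runx2, the master regulator of osteoblasts, named after its value was seen, one of -0.58 (limma adjusted p = 0.0175; the call ended after rescaling to a common total and without shLuci+OGD replicate 2 or 3 or shRac1+OGD replicate 3). The genes named from this list thus did not share a direction. Of 8 adipogenic genes, Lpl, lipoprotein lipase, was called higher at a log2 change of 1.31, and the transcription factors Cebpd and Cebpa lower at -0.84 and -0.60 (limma adjusted p = 2.07e-05, 0.000307 and 0.00131). For Lpl the authors' deposited table has 0.907 on the scale of log2(FPKM + 1), so its size depends on the constant added.

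Matricellular proteins and proteoglycans were called higher in 6 of 22 cases and lower in 2 (median log2 change 0.21; 10 higher and 4 lower without BMSC replicate 2, 3 and 1 after rescaling to a common total, 3 higher without any 1 shRac1+OGD library, and 1 lower without replicate 1 of either group). Tnc, tenascin-C, stood at 189, 189 and 175 FPKM in the libraries labelled shRac1+OGD, against 80.6, 75.0 and 89.7 FPKM in those labelled shLuci+OGD (log2 change 1.17, limma adjusted p = 0.00577). Prelp, a small proteoglycan, and Fbln2, fibulin-2, rose by log2 values of 0.83 and 0.62 (limma adjusted p = 0.000131 and 0.00498), the second not after rescaling to a common total. Postn, periostin, named after its value was seen, stood at 2267, 2265 and 2276 FPKM in the libraries labelled shRac1+OGD, against 1293, 1148 and 1209.7 FPKM in those labelled shLuci+OGD (log2 change 0.90, limma adjusted p = 0.0179), and its call ended under the same rescaling, under quantile normalization and without any 1 OGD library other than shLuci+OGD replicate 1. Thbs2, thrombospondin-2, stood at 60.2, 59.7 and 59.3 FPKM in the libraries labelled shRac1+OGD, against 117, 115 and 128 FPKM in those labelled shLuci+OGD (log2 change -1.001, limma adjusted p = 0.00675). It was also lost to the rescaling. Collagens gave 2 rises and 4 falls among 18 (median log2 change 0.08), of which Col8a2 at 0.53, Col5a3 at -0.73, Col18a1 at -0.60 and Col16a1 at -0.51 are given as log2 changes (limma adjusted p = 0.00217, 0.000698, 0.00258 and 0.00577); 6 rises and 7 falls were called without BMSC replicate 2, 1 rise and 1 fall after rescaling to a common total, and 1 rise without any 1 OGD library. Of 18 collagen-modifying enzymes, 0 were called, with P4ha2 at 0.28 and Loxl2 at 0.87 as the nearest by p (limma adjusted p = 0.0516 and 0.111). Both were called without BMSC replicate 2 (limma adjusted p = 0.0107 and 3.63e-05). Matrix proteases and their inhibitors were called higher in 4 of 23 cases and lower in 2 (median log2 change 0.16; 8 and 5 without BMSC replicate 2, and 1 lower after rescaling to a common total). Mmp2, gelatinase A, stood at 192, 194 and 197 FPKM in the libraries labelled shRac1+OGD, against 103, 112 and 112 FPKM in those labelled shLuci+OGD (log2 change 0.84, limma adjusted p = 1.43e-05). Serpine2, protease nexin-1, stood at 137, 137 and 148 FPKM in the libraries labelled shRac1+OGD, against 221, 246 and 235 FPKM in those labelled shLuci+OGD (log2 change -0.73, limma adjusted p = 1.91e-05). Adamts9 had a log2 change of 1.13 (limma adjusted p = 0.00524).

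Guidance molecules were called higher in 5 of 24 cases and lower in 1 (median log2 change 0.24; 9 higher without BMSC replicate 2, 8 under quantile normalization and 3 at a mean of at least 5 FPKM). Efnb1, ephrin-B1, a membrane ligand of Eph receptors, stood at 24.6, 24.0 and 25.1 FPKM in the libraries labelled shRac1+OGD, against 7.42, 8.24 and 8.18 FPKM in those labelled shLuci+OGD (log2 change 1.57, limma adjusted p = 2.07e-07). Slit3, a secreted ligand, rose by a log2 value of 1.04 and its receptor Robo2 by 1.83 (limma adjusted p = 0.00577 and 3.47e-05), Robo2 with at most 0.230 FPKM in the shLuci+OGD libraries. Efna1 had a log2 change of -0.90 (limma adjusted p = 0.00512; not called under quantile normalization). Cdh2, N-cadherin, was the 1 called member of 17 integrins and cadherins, with a log2 change of 0.61, and Mcam, a pericyte and stem cell surface protein, the 1 called of 13 wider stem cell markers, at 0.57 (limma adjusted p = 0.000727 and 0.00136). Those shares, 5.88% and 7.69%, were near the 7.43% of all genes tested. In the Wnt list, 1 of 16 was higher and 3 lower (median log2 change 0.08; 1 lower at a mean of at least 5 FPKM). Nkd2, which restrains Dishevelled, changed by 0.70, Wisp2 by -0.84, the ligand Wnt10b by -1.29 and Rspo3, which strengthens Wnt signals, by -0.61 on the log2 scale (limma adjusted p = 2.91e-05, 0.000814, 4.32e-05 and 0.00936; Rspo3 neither under quantile normalization nor without shRac1+OGD replicate 1). Of 9 Notch pathway genes, Notch1 and Hes1 were called lower at -0.44 and -0.44 (limma adjusted p = 0.0307 and 0.0329), but 1 was called after rescaling to a common total or at a mean of at least 5 FPKM, and 0 or 1 when an OGD library was left out.

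In the IGF axis, 2 of 10 genes were called higher and 2 lower (median log2 change 0.13; 1 higher at a mean of at least 5 FPKM). Igfbp6, a binding protein with a preference for IGF2, stood at 26.9, 23.5 and 29.1 FPKM in the libraries labelled shRac1+OGD, against 82.7, 97.1 and 80.1 FPKM in those labelled shLuci+OGD (log2 change -1.69, limma adjusted p = 0.000352). Igfbp2 stood at 5.21, 4.18 and 4.62 FPKM in the libraries labelled shRac1+OGD, against 8.36, 9.75 and 8.61 FPKM in those labelled shLuci+OGD (log2 change -0.87, limma adjusted p = 0.0065). The other 2 binding proteins were higher, Igfbp3 by 1.06 and Igfbp4 by 0.71 on the log2 scale (limma adjusted p = 0.00015 and 0.0178). Igfbp3 stood at 0.490, 0.790 and 0.611 FPKM in the libraries labelled shRac1+OGD, against 0.0508, 0.0324 and 0.0328 FPKM in those labelled shLuci+OGD, low levels in both groups, and was not called under quantile normalization. The call of Igfbp4 ended without replicate 1 of either group and without shRac1+OGD replicate 3.

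The other genes with the largest rises have no list in common. Rpl39l, a paralogue of the ribosomal protein gene Rpl39 with which reads could be shared, stood at 15.7, 16.7 and 20.5 FPKM in the libraries labelled shRac1+OGD, against 2.77, 1.07 and 1.76 FPKM in those labelled shLuci+OGD (log2 change 2.99, limma adjusted p = 0.00016). Aard stood at 10.5, 10.6 and 11.5 FPKM in the libraries labelled shRac1+OGD, against 1.81, 2.04 and 2.00 FPKM in those labelled shLuci+OGD (log2 change 2.21, limma adjusted p = 1.47e-07). Sox11, a transcription factor of neural and mesenchymal progenitors, stood at 30.3, 29.1 and 28.4 FPKM in the libraries labelled shRac1+OGD, against 7.06, 6.67 and 7.62 FPKM in those labelled shLuci+OGD (log2 change 1.97, limma adjusted p = 0.00136). The smallest of these 3 rises, that of Sox11, was 3.92-fold. Tubb3, a tubulin best known from neurons, stood at 7.86, 6.77 and 7.71 FPKM in the libraries labelled shRac1+OGD, against 1.82, 2.24 and 2.19 FPKM in those labelled shLuci+OGD (log2 change 1.62, limma adjusted p = 8.05e-07). Wfdc1 rose by a log2 value of 1.68 and Rassf4, a protein with a Ras-association domain, by 1.65 (limma adjusted p = 0.000348 and 1.47e-07). Timp3, an inhibitor of metalloproteinases, rose by 1.55 (limma adjusted p = 0.0319), a call lost after rescaling to a common total and without any 1 of the 6 OGD libraries. Of the markers of mature adipocytes, cartilage and nerve, Tubb3, Sox9 and Acan were tested and Tubb3 was the 1 called, and Snap25 and Gfap are not among the listed genes.

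Aldh3a1, which oxidises aldehydes from lipid peroxidation, showed the largest fall of the called genes. It stood at 1.97, 1.88 and 1.76 FPKM in the libraries labelled shRac1+OGD, against 11.6, 14.9 and 11.7 FPKM in those labelled shLuci+OGD (log2 change -2.47, SE 0.12, limma adjusted p = 1.47e-07). Xdh, which makes urate and is a source of superoxide in reperfused tissue, stood at 4.47, 4.74 and 4.57 FPKM in the libraries labelled shRac1+OGD, against 17.9, 18.6 and 19.0 FPKM in those labelled shLuci+OGD (log2 change -1.90, SE 0.09, limma adjusted p = 1.47e-07). Anpep, CD13, an aminopeptidase on the surface of mesenchymal stem cells, stood at 5.34, 5.95 and 5.41 FPKM in the libraries labelled shRac1+OGD, against 21.5, 22.5 and 22.4 FPKM in those labelled shLuci+OGD (log2 change -1.90, limma adjusted p = 1.57e-07). These 3 fell to between 0.181 and 0.268 of their shLuci+OGD levels, with no overlap. Msln, mesothelin, a surface protein of mesothelium, stood at 2.39, 2.03 and 2.19 FPKM in the libraries labelled shRac1+OGD, against 10.8, 11.2 and 9.35 FPKM in those labelled shLuci+OGD (log2 change -2.02, limma adjusted p = 6.07e-07). Cdhr1, a cadherin of photoreceptors, stood at 9.84, 9.64 and 9.31 FPKM in the libraries labelled shRac1+OGD, against 35.1, 33.6 and 37.3 FPKM in those labelled shLuci+OGD (log2 change -1.83, limma adjusted p = 2.45e-06). Aspn, asporin, a proteoglycan that binds TGF-beta, fell by 1.83 and the similarly named Aspnl1 by 1.81 on the log2 scale (limma adjusted p = 0.014 and 5.03e-05), and reads may be shared between this pair. The call of Aspn ended with a pseudocount of 0.1 and without replicate 1 of either group. Meox2, a homeobox factor that restrains proliferation of vascular cells, stood at 1.66, 1.53 and 1.95 FPKM in the libraries labelled shRac1+OGD, against 6.58, 6.37 and 5.89 FPKM in those labelled shLuci+OGD (log2 change -1.62, limma adjusted p = 5.34e-07). Olfm1 fell by 1.60, Prr15 by 1.66, Pcp4l1 by 1.64 and Vwa5a by 1.54 on the log2 scale (limma adjusted p = 1.08e-05, 0.000602, 0.00281 and 0.00201).

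Among hypoxia-inducible factor targets, 5 of 26 were called higher and 2 lower (median log2 change 0.26; 11 higher without BMSC replicate 2, and 0 lower after rescaling to a common total, under quantile normalization, at a mean of at least 5 FPKM or without any 1 OGD library). Car9, carbonic anhydrase IX, stood at 151, 148 and 149.5 FPKM in the libraries labelled shRac1+OGD, against 75.0, 86.8 and 80.6 FPKM in those labelled shLuci+OGD (log2 change 0.88, limma adjusted p = 4.8e-05). Slc2a1, the glucose transporter GLUT1, stood at 42.1, 42.1 and 40.4 FPKM in the libraries labelled shRac1+OGD, against 26.6, 31.0 and 29.0 FPKM in those labelled shLuci+OGD (log2 change 0.52, limma adjusted p = 0.00169). Slc16a3, which exports lactate, rose by a log2 value of 1.51, with at most 0.129 FPKM in the shLuci+OGD libraries (limma adjusted p = 4.86e-05). Of 17 glycolytic enzymes 1 was called, Pfkm, the muscle phosphofructokinase, at a log2 change of -0.32 (limma adjusted p = 0.0148; not after rescaling to a common total, nor without shLuci+OGD replicate 2 or shRac1+OGD replicate 1). Of the targets of NRF2, 2 of 29 were higher and 1 lower (median log2 change -0.002, and 4 higher without BMSC replicate 2). The share called was 10.3% in this list, 5.88% in the glycolytic enzymes and 11.1% in the ATF4 targets below, against 7.43% of all genes tested. Hmox1, haem oxygenase-1, stood at 70.5, 76.3 and 74.5 FPKM in the libraries labelled shRac1+OGD, against 47.9, 53.6 and 46.4 FPKM in those labelled shLuci+OGD (log2 change 0.58, limma adjusted p = 0.00084). Sod3, the secreted superoxide dismutase, rose by a log2 value of 0.95 (limma adjusted p = 0.000603). ATF4 targets were called higher in 3 of 36 cases and lower in 1 (median log2 change 0.08; 9 higher without BMSC replicate 2, 5 after rescaling to a common total, and 1 without replicate 3 of either group), led by Asns, asparagine synthetase, at 69.9, 67.8 and 71.6 FPKM in the libraries labelled shRac1+OGD, against 51.3, 53.5 and 53.6 FPKM in those labelled shLuci+OGD (log2 change 0.40, limma adjusted p = 0.000759). Slc7a3, a cationic amino acid transporter, and Atf5 rose by log2 values of 0.53 and 0.30 (limma adjusted p = 0.0452 and 0.0122), and both calls ended under quantile normalization. That of Slc7a3 ended also without any 1 OGD library other than shRac1+OGD replicate 1. A pseudocount of 0.1, a replicate block or the 6 OGD libraries alone ended it too. The call of Atf5 ended also after rescaling to a common total and without replicate 3 of either group or shRac1+OGD replicate 1. The glycine transporter Slc6a9 had a log2 change of -0.47 (limma adjusted p = 0.00565). Of 19 heat shock genes, 2 were higher and 2 lower (median log2 change 0.06; 5 and 4 without BMSC replicate 2, 1 higher without any 1 OGD library and 1 lower at a mean of at least 5 FPKM). Cryab, alpha B-crystallin, stood at 85.3, 81.8 and 83.8 FPKM in the libraries labelled shRac1+OGD, against 30.7, 34.2 and 33.7 FPKM in those labelled shLuci+OGD (log2 change 1.34, limma adjusted p = 0.000886), and Hspb8, another small chaperone, at 25.1, 26.9 and 28.5 FPKM in the libraries labelled shRac1+OGD, against 49.6, 46.2 and 46.6 FPKM in those labelled shLuci+OGD (log2 change -0.81, limma adjusted p = 4.7e-05). Hspb7 changed by -1.01 and Hsph1, a partner of HSP70, by 0.43 on the log2 scale (limma adjusted p = 0.000303 and 0.0273). The call of Hsph1 ended without any 1 OGD library, after rescaling to a common total and under quantile normalization.

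Immediate early genes were called higher in 2 of 21 cases and lower in 5 (median log2 change 0.08; 4 higher without BMSC replicate 2, 3 lower after rescaling to a common total, and 1 higher without any 1 OGD library, with 3 lower except without shLuci+OGD replicate 1, where 4 were). More members were thus called lower although the median was above zero, as in the collagen and Wnt lists, whereas the median of the TGF-beta and BMP list was below zero with more members called higher. Fos, a subunit of AP-1, stood at 5.97, 5.07 and 5.05 FPKM in the libraries labelled shRac1+OGD, against 12.3, 13.4 and 14.5 FPKM in those labelled shLuci+OGD (log2 change -1.25, SE 0.08, limma adjusted p = 1.01e-06), when the lowest library of the infected groups without OGD had 155.8 FPKM. Junb, its partner, stood at 37.8, 39.5 and 40.1 FPKM in the libraries labelled shRac1+OGD, against 60.4, 63.8 and 55.7 FPKM in those labelled shLuci+OGD (log2 change -0.61, limma adjusted p = 5.03e-05). Klf10 changed by -0.39 and Maff, a small Maf factor, by 0.62 on the log2 scale (limma adjusted p = 0.00957 and 0.00524); Klf10 lost its call after rescaling to a common total and without shRac1+OGD replicate 3. In the clock list, 1 of 16 was higher and 3 lower (median log2 change -0.16; 5 lower without BMSC replicate 2 or under quantile normalization). Nr1d1, the repressor REV-ERB alpha, stood at 10.96, 11.5 and 11.8 FPKM in the libraries labelled shRac1+OGD, against 17.6, 21.4 and 19.9 FPKM in those labelled shLuci+OGD (log2 change -0.75, limma adjusted p = 0.000707). Cry1, a repressor of the clock, rose by a log2 value of 0.49 (limma adjusted p = 0.0405), a call that ended without any 1 OGD library. It ended also after rescaling to a common total, with a replicate block and at a mean of at least 5 FPKM. Dbp and Tef, output factors of the PAR bZIP family, changed by -0.89 and -0.38 on the log2 scale (limma adjusted p = 0.0108 and 0.00238); the call of Dbp ended without shRac1+OGD replicate 1 and that of Tef after rescaling to a common total.

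Genes of cell death moved in both directions. Targets of p53 and cell cycle inhibitors were called higher in 4 of 24 cases with 0 lower (median log2 change 0.10; 7 higher without BMSC replicate 2, and 2 without replicate 3 of either group, shLuci+OGD replicate 2 or shRac1+OGD replicate 1). Pmaip1, NOXA, a pro-apoptotic BH3-only protein that is in this list and in the BCL2 family, stood at 146, 147 and 151 FPKM in the libraries labelled shRac1+OGD, against 66.4, 69.8 and 70.5 FPKM in those labelled shLuci+OGD (log2 change 1.10, limma adjusted p = 0.000148). Plk3, Aen, a nuclease, and Gadd45a had log2 changes of 0.64, 0.41 and 0.29 (limma adjusted p = 0.000729, 0.0227 and 0.0183). The call of Aen ended without any 1 OGD library other than shRac1+OGD replicate 2, and that of Gadd45a other than shLuci+OGD replicate 1. Gadd45a also lost its call after rescaling to a common total. In the BCL2 family, 1 of 13 was called higher and 3 lower (5 lower without BMSC replicate 2, and 1 at a mean of at least 5 FPKM). The 3 called lower encode BH3-only proteins too: Bcl2l11, BIM, at 3.69, 3.44 and 3.33 FPKM in the libraries labelled shRac1+OGD, against 7.83, 7.78 and 7.61 FPKM in those labelled shLuci+OGD (log2 change -1.05, limma adjusted p = 0.000403), Bmf at -1.06 and Bid at -0.54 as log2 changes (limma adjusted p = 0.000201 and 0.0018; Bid not after rescaling to a common total). Mitosis genes were called lower in 2 of 29 cases (8 without BMSC replicate 2), and DNA replication genes higher in 1 and lower in 1 of 38. These are 6.9% and 5.26% of the members, below the 7.43% of all genes tested. The 2 mitosis genes, Cenpa and Nusap1, changed by -0.35 and -0.34 on the log2 scale (limma adjusted p = 0.0241 and 0.0429) and lost their calls after rescaling to a common total; 0 or 1 of the 2 was called when an OGD library was left out. Of the replication genes, Cdc6, which loads the helicase, changed by 0.39 and Lig1, a DNA ligase, by -0.29 on the log2 scale (limma adjusted p = 0.0172 and 0.00929). Cdc6 was not called without shLuci+OGD replicate 2 or 3 or shRac1+OGD replicate 2. Lig1 lost its call after rescaling to a common total and with median-of-ratios scaling.

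In the lists around Rac1, the share called is given beside the 7.43% of all genes tested. Of 29 WAVE, Arp2/3, PAK and cofilin genes tested, 0 were called higher and 1 lower (3.45%; median log2 change -0.03). It was Baiap2, IRSp53, which links Rac1 to WAVE, at 11.7, 12.2 and 10.8 FPKM in the libraries labelled shRac1+OGD, against 16.1, 17.9 and 16.9 FPKM in those labelled shLuci+OGD (log2 change -0.53, limma adjusted p = 0.00566). Of 20 exchange factors, GAPs and GDIs of Rac, 2 were called higher and 1 lower (15% in all; 0 or 1 higher when an OGD library was left out). Arhgap22, a GAP that turns Rac off, stood at 10.995, 9.74 and 10.4 FPKM in the libraries labelled shRac1+OGD, against 16.8, 19.1 and 17.0 FPKM in those labelled shLuci+OGD (log2 change -0.74, limma adjusted p = 0.00179). Elmo1, part of a Rac exchange complex, and Chn1, a Rac GAP, had log2 changes of 1.33 and 0.23 (limma adjusted p = 0.0301 and 0.0378), and both calls ended after rescaling to a common total. That of Elmo1 ended also without any 1 OGD library. That of Chn1 ended without any other than shLuci+OGD replicate 2, with a replicate block and with no trend. Elmo1 is at 0.931 in the authors' deposited table, on the scale of log2(FPKM + 1), so its size depends on the constant added. Among 17 small GTPases in the list that holds Rac1, Rhou was the 1 called (5.88%), at a log2 change of 1.31 (limma adjusted p = 0.045), with levels of 0 to 1.12 FPKM, and its call ended without any 1 of the 6 OGD libraries. It ended also with common-total, median-of-ratios or quantile scaling, a pseudocount of 0.1 or a replicate block. Rhoa and Cdc42, picked after their values were seen, were not called, at -0.03 and -0.07 on that scale (limma adjusted p = 0.95 and 0.904). Nox4, an NADPH oxidase that needs no Rac and the 1 called of 2 such genes tested, changed by 0.47 (limma adjusted p = 0.0259). Its call was lost after rescaling to a common total, under quantile normalization and without any 1 OGD library other than shLuci+OGD replicate 3.

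Smaller counts were found in 2 further lists. Of 17 S100 proteins and annexins, 2 were called higher and 2 lower, the falls being Anxa7 and Anxa11 at -0.32 and -0.31 on the log2 scale (limma adjusted p = 0.0156 and 0.0263), of which 0 or 1 was called when an OGD library was left out and 0 after rescaling to a common total; 5 were lower without BMSC replicate 2. Anxa3, a calcium-dependent binder of phospholipids, stood at 97.2, 100.1 and 105 FPKM in the libraries labelled shRac1+OGD, against 81.4, 73.2 and 68.3 FPKM in those labelled shLuci+OGD (log2 change 0.44, limma adjusted p = 0.00388). Of 31 lysosome and autophagy genes, Neu1, a sialidase, was called higher at a log2 change of 0.56 and Ctsl, cathepsin L, lower at -0.47 (limma adjusted p = 0.0157 and 0.0121). That is 6.45% called, against 7.43% of all genes tested. The call of Neu1 ended without replicate 1 of either group, shLuci+OGD replicate 3 or shRac1+OGD replicate 2. That of Ctsl ended without shRac1+OGD replicate 1, after rescaling to a common total and under quantile normalization.

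Several lists of core functions had no called member in the fit of all 15 libraries. They were 48 ribosomal protein genes (median log2 change -0.26) and 30 proteasome subunits (-0.13). The others were 21 folding factors of the endoplasmic reticulum (0.07) and 12 mitochondrially encoded genes (-0.19). In the limma fit a p that misses the threshold does not show that these genes were alike in the groups, and Hspa5 and Pdia3 had log2 changes of 0.15 and 0.15 (limma adjusted p = 0.214 and 0.27) with no overlap between the groups. Of the other lists, Rpl8 and Rpl3 stood at -0.37 and -0.27, Psmd14 and Psmd2 at -0.13 and -0.13, and Mt-atp6 and Mt-nd4 at -0.24 and -0.21 on the log2 scale (limma adjusted p = 0.462, 0.406, 0.379, 0.383, 0.336 and 0.411). The fit without BMSC replicate 2 did call Hspa5, Pdia3, Rpl3 and Rpl8 (limma adjusted p = 0.0327, 0.022, 0.015 and 0.0145). It called 1048 genes higher and 1425 lower in all. Nhp2 was listed at 0, 58.1 and 61.8 FPKM with shRac1+OGD and at 75.3, 70.8 and 59.0 FPKM with shLuci+OGD. Polr2l was listed at 0, 17.2 and 18.3 FPKM with shRac1+OGD and at 0, 14.8 and 12.6 FPKM with shLuci+OGD. Both genes were at 0 in replicate 1 of a group and well above it in the other 2 replicates, and no fold is given for them.

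The same hairpin contrast without OGD, from the 3 libraries labelled shRac1 and the 3 labelled shLuci, shares no library with the contrast after OGD. It called 1928 genes (16.7%), 797 higher and 1131 lower with shRac1. Of the 856 genes called after OGD, 696 had the opposite sign without OGD. Called in both contrasts were 530 genes, 482 in opposite directions and 48 in the same direction. Of the 482, 266 were higher with shRac1+OGD and lower with shRac1, and 216 were lower with shRac1+OGD and higher with shRac1. The log2 changes of the 2 contrasts correlated across the 11515 genes at a Pearson r of -0.510 and a Spearman rank correlation of -0.344, a description of genes that share 12 libraries and 1 fit. The interaction, which is the contrast after OGD minus that without, was called for 1922 genes (16.7%; 1022 positive and 900 negative). Of the 856 genes called after OGD it was called for 720.

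**Figure D4:**
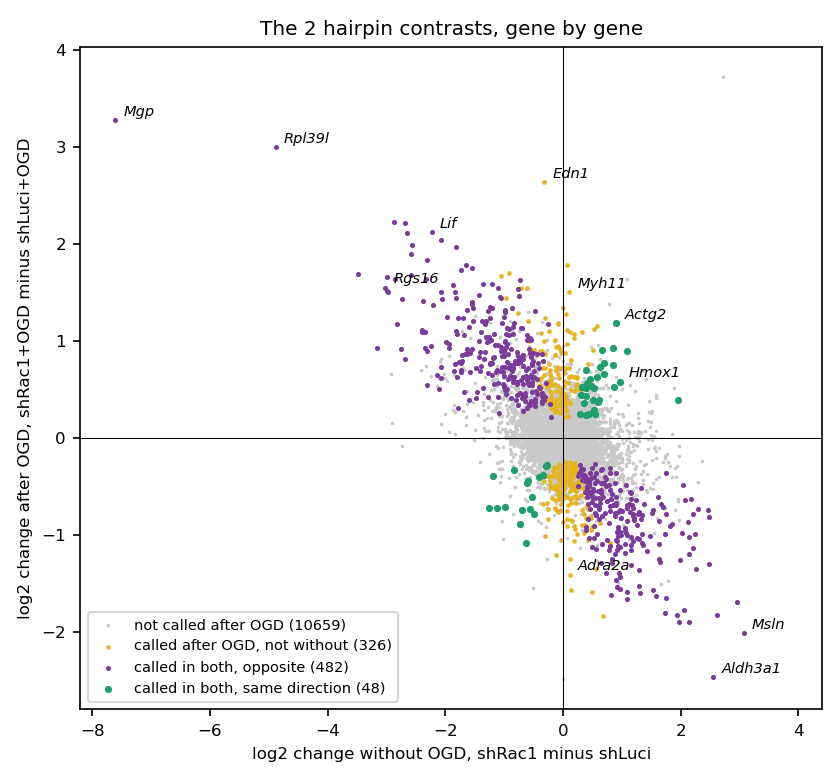
Log2 change after OGD, shRac1+OGD minus shLuci+OGD (vertical axis), against that without OGD, shRac1 minus shLuci (horizontal axis), for the 11515 genes tested. Purple points are the 482 genes called in both with opposite signs, green points the 48 called in both with the same sign and yellow points the 326 called after OGD and not without; most coloured points lie to the upper left or the lower right of the origin.

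Mgp shows the size that the opposition reached. Its log2 change was 3.28 after OGD and -7.61 without (limma adjusted p = 6.42e-10), with an interaction of 10.88 (SE 0.32, limma adjusted p = 5.58e-10). Aldh3a1 mirrored it, at -2.47 after OGD and 2.55 without (interaction -5.02, limma adjusted p = 1.25e-09). Its values were 8.33, 7.84 and 8.16 FPKM with shRac1 and 0.836, 1.11 and 0.964 FPKM with shLuci, so that shLuci+OGD and shRac1 were the high groups. Msln, with an interaction of -5.09, Igfbp6 at -4.65, Cdhr1 at -4.45 and Anpep at -4.04 had the same form (limma adjusted p = 1.32e-09, 4.17e-07, 6.49e-09 and 1.32e-09). On the other side stood Rpl39l at 7.87, S100a16, a calcium-binding protein, at 5.17, Galnt3, which glycosylates FGF23, at 5.10 and Aard at 4.90 (limma adjusted p = 2.46e-07, 3.41e-07, 2.73e-08 and 6.24e-10). S100a16 was called higher with shRac1+OGD at a log2 change of 1.68, and so was Galnt3 at 2.23.

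The contractile genes were divided by this comparison. Without OGD 9 of the 28 were called higher and 1 lower with shRac1, while the chemokines and NF-kB targets, called only higher after OGD, had 3 higher and 8 lower without it. Over all 11515 genes, 797 were called higher and 1131 lower without OGD (16.7%), against 443 and 413 after it (7.43%). The list counts of the 2 contrasts thus stand beside unlike totals. Actg2 was higher with the Rac1 label in both, by 1.18 after OGD and 0.90 without, as was Cnn1, by 0.77 and 0.69 in the same order, and neither interaction was called (limma adjusted p = 0.446 and 0.812). Lims2, an adaptor at integrin adhesions, and Osr1, a transcription factor of mesenchyme, both named after their values were seen, also rose in both, Lims2 by 0.93 and 0.86, Osr1 by 0.54 and 0.47. Hmox1, Slc2a1, Maff and Nkd2 were called higher, and Junb, Arhgap22, Col5a3 and Dbp lower, in both contrasts. Myh11 differed after OGD and not detectably without, at 1.50 and 0.11, and its interaction of 1.40 was called (limma adjusted p = 4.08e-06). Fos (interaction -1.36), Car9 (0.91), Tnfaip6 (0.88), Irf1 (-0.68) and Acta2 (0.98) likewise had log2 changes of at most 0.19 in size without OGD and a called interaction. So had Adra2a, the alpha-2A adrenergic receptor, and Npr3, the clearance receptor of natriuretic peptides, both named after their values were seen. Adra2a stood at 7.80, 8.22 and 7.05 FPKM in the libraries labelled shRac1+OGD, against 20.02, 22.7 and 21.1 FPKM in those labelled shLuci+OGD (log2 change -1.41, limma adjusted p = 7.23e-06). Npr3 stood at 29.5, 30.01 and 27.2 FPKM in the libraries labelled shRac1+OGD, against 11.5, 10.4 and 11.7 FPKM in those labelled shLuci+OGD (log2 change 1.33, limma adjusted p = 0.00515), beside 36.9 ± 1.22 FPKM in shRac1 and 37.1 ± 4.60 FPKM in shLuci (SD, n = 3 each).

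**Figure D5:**
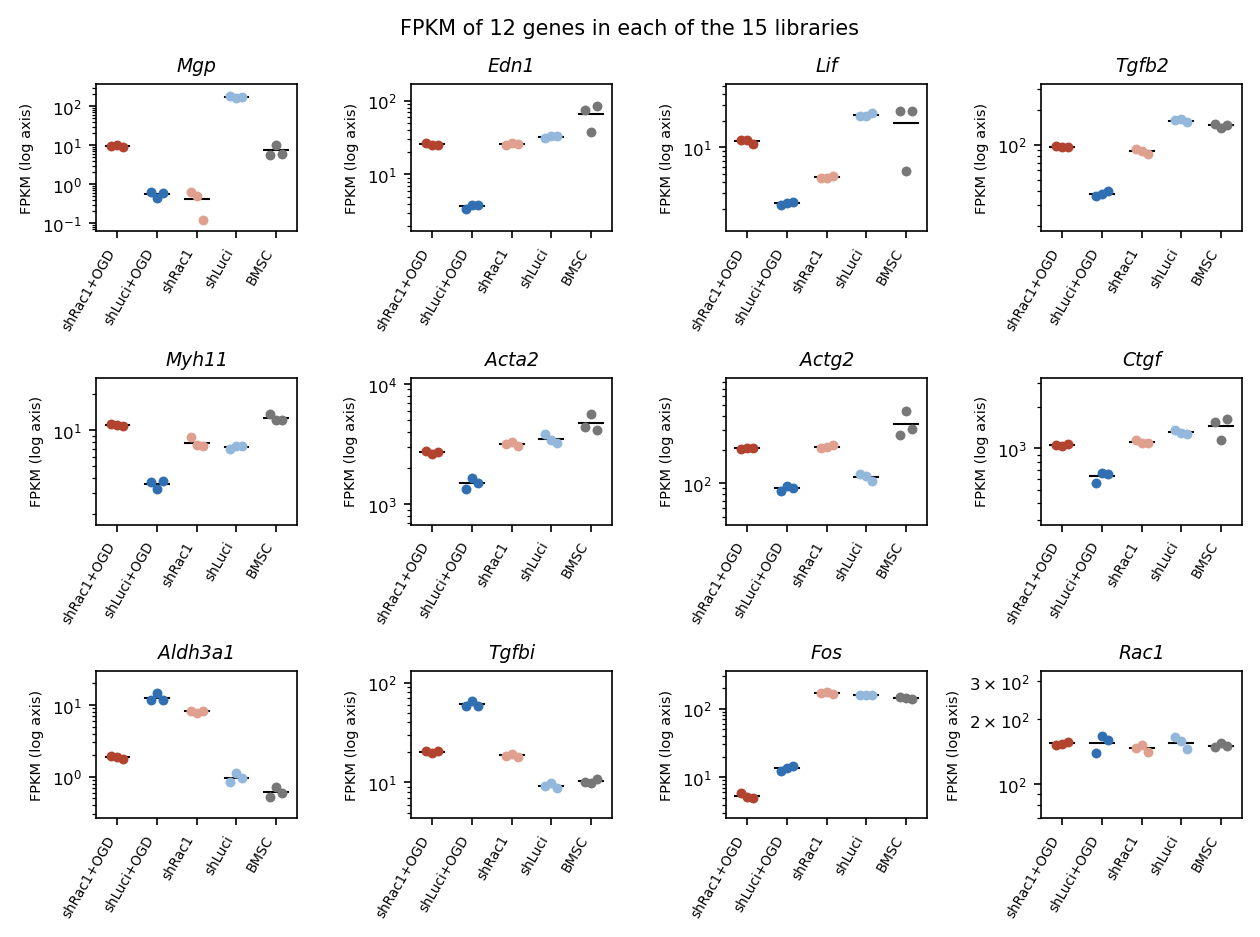
FPKM (log axis) of 12 genes in each library, by group; points are the 3 replicates and bars their mean. In Mgp, Lif and Aldh3a1 the mean nearest to that of shLuci+OGD is that of shRac1; in Edn1, Myh11, Acta2 and Ctgf shLuci+OGD lies below all other groups and in Tgfbi above them, and Rac1 lies between 139.3 and 167.6 FPKM in every library.

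The authors' deposited table for the same comparison lists 317 genes as up and 241 as down, all at a fold of at least 1.5 either way. Of the 317, 243 (76.7%) were called higher here, and these are 54.9% of the 443. Of the 241, 196 (81.3%) were called lower here, or 47.5% of the 413. By the q-value of the authors' deposited table, 263 of the up list and 195 of the down list fall below 0.05. Mgp has a log2 fold change of 2.78 and Edn1 one of 2.50 in the authors' deposited table, on the scale of log2(FPKM + 1).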

How the data were processed

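RNA was sequenced from 15 libraries in 5 groups of 3, of which the 3 titled shRac1+OGD and the 3 titled shLuci+OGD are compared here. The values are FPKM per gene as the authors deposited them, per the file headers. StringTie 1.2.3 and HISAT2 (version not given) are named, per the submitters' processing notes; no source used here names the genome build. The authors' deposited lists for this comparison hold a log2 fold change, the same as a linear ratio, a p-value and a q-value, and no source used here names the authors' test. In these lists the log2 fold change is the difference between group means of log2(FPKM + 1), which was checked on the values. FPKM hold no read counts, so the depth is unknown, no counting interval could be given, and low genes are less certain than high ones.

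The filter kept 11515 of 12169 genes, those that reached 1 FPKM in 3 libraries or more. limma 3.58.1 in R 4.3.3 was fitted to log2(FPKM + 0.5) of all 15 libraries with 1 mean per group, a mean-variance trend and 10 residual degrees of freedom, and p-values were adjusted by Benjamini-Hochberg over all genes tested. All 3 contrasts (after OGD, without OGD and their interaction) come from this fit. Rac1 was also tested by an exact permutation of the 6 libraries. The named genes are Rac1 and Rac3, the top 15 called genes by rise and the top 15 by fall (named loci, a mean of 5 FPKM or more in whichever group was higher, no overlap), up to 4 called members of each of 48 gene lists by p (2 where none was called), and the 5 largest interactions each way. Genes listed at 0 in an OGD library with a mean above 10 FPKM were added. Others were chosen after their values were seen, as the text says. Some genes that these rules name are not reported here. Members, lists and alternatives were chosen with earlier results of these data known. Promoters are from RefSeq, GRCr8; 8452 of the genes tested have a window, and positions count from the start site.

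Alternatives were other pseudocounts (0.1 and 1), filters, scalings (common total, median of ratios, quantile), choices of libraries, library weights, no trend, a replicate block and leaving out each library in turn. Replicate numbers did not pair the libraries. Lists for other comparisons of the series were not used here.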

Additional observations from a re-analysis of the deposited data

Results flagged for a closer look

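For 125 of the 165 genes named by rule or after their values were seen and given a fold, the effect of the hairpin label differed with OGD. The difference was tested as an interaction in limma, called at an adjusted p below 0.05, against 16.7% of all 11515 genes tested. Its value is (shRac1+OGD minus shLuci+OGD) minus (shRac1 minus shLuci) on the log2 scale, and each is given once here. It was positive for 68 genes and negative for 57. Many of these genes were chosen for a large change after OGD or for a large interaction, so their share is no measure of all genes.

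Among the positive values, the largest belonged to Mgp 10.88, Rpl39l 7.87, S100a16 5.17, Galnt3 5.10, Aard 4.90, Rassf4 4.65 and Rgs16 4.57. Secreted ligands, their inhibitors and receptors were Fstl3 4.50, Ptger3 4.47, Lif 4.35, Robo2 4.15, Ccl2 3.66, Efnb1 3.44, Edn1 2.95 and Slit3 2.30. Growth factors and cytokines were Tgfb2 2.21, Gas6 1.84, Nrg1 1.80, Bmp4 1.77, Fgf1 1.56, Cxcl1 1.55, Tgfb3 1.43, Tnfaip6 0.88 and Hbegf 0.50. Genes of matrix, its enzymes and mineral were Tnc 2.50, Fbln2 2.42, Mmp2 2.27, Timp3 2.16, Prelp 2.02, Adamts9 1.82, Alpl 1.55, Loxl2 1.42 and Postn 1.42. Contractile genes and targets of YAP were Nuak2 2.42, Myh11 1.40, Ctgf 0.99, Acta2 0.98, Cyr61 0.85, Tagln 0.81 and Tpm1 0.53. Enzymes, transporters and stress genes were Slc16a3 4.50, Sod3 3.20, Lpl 2.94, Cryab 2.87, Nox4 2.15, Neu1 1.58, Car9 0.91, Slc7a3 0.80 and Asns 0.41. Regulators of signalling and transcription were Sox11 3.79, Dusp4 3.57, Rhou 2.58, Elmo1 2.56, Spry4 2.30, Etv5 1.31, Klf10 0.80 and Nkd2 0.31. Genes of growth arrest, death and replication were Pmaip1 1.33, Aen 1.30, Plk3 1.19 and Cdc6 0.72. The remaining positive values were Wfdc1 4.27, Igfbp3 2.74, Tubb3 2.36, Flt1 1.58, Npr3 1.34, Cdh2 1.04 and Mcam 0.83.

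Among the negative values, the largest in size belonged to Msln -5.09, Aldh3a1 -5.02, Igfbp6 -4.65, Cdhr1 -4.45, Anpep -4.04, Xdh -3.87, Aspn -3.76, Vegfd -3.60 and Aspnl1 -3.53. Ligands, receptors and binding proteins were Igfbp2 -2.99, Kitlg -2.66, Rspo3 -2.22, Bmp2 -2.13, Tgfbr3 -2.08, Wnt10b -1.94, Adra2a -1.52, Efna1 -1.28, Ednra -1.23 and Cd14 -0.56. Genes of matrix, muscle and mineral were Tgfbi -2.53, Des -2.43, Thbs2 -2.09, Omd -1.94, Serpine2 -1.34, Wisp2 -1.27, Col18a1 -0.82, Col16a1 -0.78 and Spp1 -0.48. Interferon-stimulated genes were Psmb9 -2.10, Psmb8 -1.85, Tap2 -1.55, Irf7 -1.43 and Irf1 -0.68. Chaperones and genes of cell death were Hspb8 -3.29, Hspb7 -1.96, Bcl2l11 -1.79, Bid -1.52 and Bmf -1.24. Transcription factors and signalling genes were Meox2 -2.43, Rgs17 -1.43, Fos -1.36, Dusp5 -0.94, Nr1d1 -0.71, Cebpd -0.58 and Cebpa -0.54. Enzymes and transporters were Ptgs1 -3.41, Slc6a9 -1.17, Pfkm -0.99, Ctsl -0.91, Hmox1 -0.39 and Lig1 -0.30. The remaining negative values were Pcp4l1 -3.22, Olfm1 -2.91, Prr15 -2.74, Vwa5a -2.45, Mt-nd4 -0.56 and Anxa7 -0.41.

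Of these genes, Hmox1, Nkd2 and Klf10 were called in the same direction with and without OGD, and Loxl2, Flt1 and Mt-nd4 were not called after OGD. No cause of these differences was tested.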

How the results depend on the processing

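Weights for libraries moved the counts most, and the choice of libraries in the fit next. For 443 genes higher and 413 lower with shRac1+OGD, the counts were 900 and 1200 with the 6 OGD libraries alone, 1028 and 1416 with the 12 infected libraries, 1048 and 1425 without BMSC replicate 2, and 1396 and 2008 with library weights. A mean of at least 5 FPKM left 260 and 210, and rescaling to a common total 262 lower. The 1928 calls of shRac1 against shLuci became, for the same 4 settings, 3731, 4239, 4296 and 8239, and 1117 at a mean of at least 5 FPKM. The 1922 interactions became 4175, 4175, 4217 and 6673, and 1120. Genes called oppositely in both contrasts, 482, became 1014, 1220, 1245 and 2119, and 230. Those called in the same direction, 48, became 181, 246, 250 and 632. The r of the contrasts, -0.510, was -0.459 at a mean of at least 5 FPKM.

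Leaving out 1 library in turn gave 291 to 315 genes higher, 263 to 299 lower, 1361 to 1510 for shRac1 against shLuci, 1515 to 1614 interactions, 352 to 419 opposite, 26 to 36 in the same direction, and an r of -0.539 to -0.474. The log2 change of Rac1, -0.003, was 0.049 on a common total, 0.044 with median-of-ratios scaling, 0.023 with quantile normalization and -0.081 to 0.052 with a library left out, and was never called. Flt1, not called at 0.07, was -0.155 under quantile normalization. Of 153 called named genes none changed sign in any setting, 29 lost their call on a common total, 17 under quantile normalization, and 21 to 29 with an OGD library left out. Of 41 counts of list members called, 17, 20, 22 and 28 were over 1.5 times higher in the same 4 settings and 0 lower, while 14 were lower on a common total, 14 at a mean of at least 5 FPKM and 11 to 15 with an OGD library left out. The cause of these shifts was not tested beyond the change of libraries or genes itself.

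With the replicate number as a block, 756 genes were called, 739 of them among the 856, with 401 higher and 355 lower, and 8 named genes lost their call. Libraries of shRac1+OGD and shLuci+OGD with the same number correlated in their deviations at -0.050, -0.178 and -0.213, so the numbers are not taken as a pairing. FPKM without depth limit what can be said of genes near 0.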
